A study of Mus musculus with 6 samples.

Results

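Levels of 9 genes of the PPAR and LXR nuclear receptor system were compared between 3 mouse RNA sequencing libraries labelled WT and 3 labelled KO. The genes were chosen by symbol from the 21399 genes listed in each library, and all 9 were found: the receptors Ppara, Pparg, Ppard, Nr1h3 and Nr1h2, the shared partners Rxra and Rxrb, the coactivator gene Ppargc1b and the corepressor gene Ncor1. According to the series' design text, primary microglia from WT or KO mice carrying the CD45.2 form of the leukocyte protein CD45 went through oxygen and glucose deprivation, a cell model of ischaemia. They were then reoxygenated together with peritoneal macrophages of CD45.1 mice, so both groups share the deprivation and the co-culture, and only the genotype of the microglia is labelled as different. The design text calls the sorted cells microglia but gives them the CD45.1 mark of the added macrophages, and each sample is labelled as holding both cell types. Neither the deleted gene and the way it was deleted, nor the strain, age and sex of the mice, nor the number of cultures or animals behind each group is given in the sources used here. The series title names PPARα. Since the 3 libraries of a group may be technical repeats, p-values describe their spread and no more.

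PPARs and LXRs are transcription factors that are switched on by lipids: PPARs by fatty acids and their derivatives, LXRs by oxidised forms of cholesterol. Each binds DNA as a pair with a retinoid X receptor, or RXR, at repeats of a short motif. Without a ligand the pair can hold the corepressor complex built on NCOR1, and with a ligand it takes up coactivators such as the PGC-1 proteins. In macrophages PPARγ is known for lipid uptake and storage genes, PPARα and PPARδ for fatty acid oxidation genes, and LXRs for cholesterol export genes. Ppara encodes PPARα, Pparg PPARγ, Ppard PPARδ, Nr1h3 LXRα, Nr1h2 LXRβ, Rxra RXRα and Rxrb RXRβ.

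Levels were given as FPKM, fragment counts scaled to transcript length and library depth, so that genes of different length can be compared. Whole reads were recovered from these values and summed to between 34681478 and 38246804 per library. Defining markers were checked first. The 10 core macrophage genes summed to 1269 to 3717 FPKM in the WT libraries and to 4718 to 10860 FPKM in the KO libraries, with 8 of 10 not overlapping between groups and higher in KO. The 10 resident peritoneal macrophage genes summed to 313 to 693 FPKM and to 1584 to 2120 FPKM, with 8 of 10 not overlapping and higher in KO. The 10 B cell genes summed to 5574 to 6402 FPKM in WT, above the core macrophage genes in every WT library, and to 4939 to 5389 FPKM in KO, and 5 of 10 did not overlap and were lower in KO. Over the 10732 genes at a mean of at least 1 FPKM, 9.75% did not overlap and were higher in KO, and 15.2% lower. Single genes carried much of the macrophage sums. Lyz2 held 8717 of 10860 FPKM of the core list in KO replicate 1, and Thbs1 held 1661 of 1962 FPKM of the resident list in KO replicate 2. T and NK cell genes summed to 169 to 204 FPKM in WT and 134 to 159 FPKM in KO, and granulocyte and mast cell genes ranged from 7.32 to 221 FPKM within WT alone. Of the microglia genes, Tmem119 averaged 0.567 ± 0.427 FPKM in WT against 2.27 ± 0.148 FPKM for KO (SD, n = 3), P2ry12 reached at most 1.09 FPKM, and Sall1 and Slc2a5 were listed at 0 in some libraries, so that these defining microglia markers were low or at 0. In such mixed libraries, more cells of a type and more RNA per cell cannot be told apart.

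Ppara was close to the limit of detection in all 6 libraries. The WT libraries held 0.0290, 0.00259 and 0.00551 FPKM (11, 1 and 2 reads) and the KO libraries 0.0325, 0.0588 and 0.0270 FPKM (13, 23 and 10 reads). The groups overlapped, since WT replicate 1 lay above KO replicate 3. The WT libraries held 14 Ppara reads in all, with a 95% exact Poisson interval of 7.65 to 23.5 for counting error only, and the KO libraries held 46, with an interval of 33.7 to 61.4. The ratio of mean reads was 3.29 and the exact two-sided permutation p was 0.2, where 0.1 is the smallest that 3 against 3 libraries allow. No setting called Ppara lower in the libraries labelled KO, and these gene-level values cannot check the labels, since part of a gene can be deleted and the added macrophages would hold the intact gene. The groups are therefore called the libraries labelled WT and KO, or WT and KO for short.

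Pparg, the lipid-storage member of the family, was also near the limit. The WT libraries held 0.0301, 0.0394 and 0.105 FPKM (3, 4 and 10 reads) and the KO libraries 0.266, 0.0584 and 0.0205 FPKM (28, 6 and 2 reads). KO replicate 1 stood apart from the other 5 libraries, and KO replicate 3 was the lowest of all. Pparg averaged 0.0581 ± 0.0407 in WT against 0.115 ± 0.132 FPKM for KO (SD, n = 3), with an exact two-sided permutation p of 0.7 on reads. The difference on the log2(FPKM + 1) scale was 0.07 with all libraries and -0.03 without KO replicate 1.

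Ppard was the PPAR gene that these libraries expressed. Its level was 11.9, 14.1 and 12.7 FPKM in WT and 12.8, 13.9 and 13.9 FPKM in KO. All 6 values lay within a narrow band and the groups overlapped. Ppard averaged 12.9 ± 1.15 in WT against 13.5 ± 0.678 FPKM for KO (SD, n = 3), a ratio of 1.05. The log2 difference was 0.07 with an SE of 0.09, and limma's adjusted p over all genes was 0.738. Compared per length over the 6 libraries, the mean level of Ppard was 13.2 FPKM, beside 0.0866 FPKM for Pparg and 0.0259 FPKM for Ppara.

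**Figure D1:**
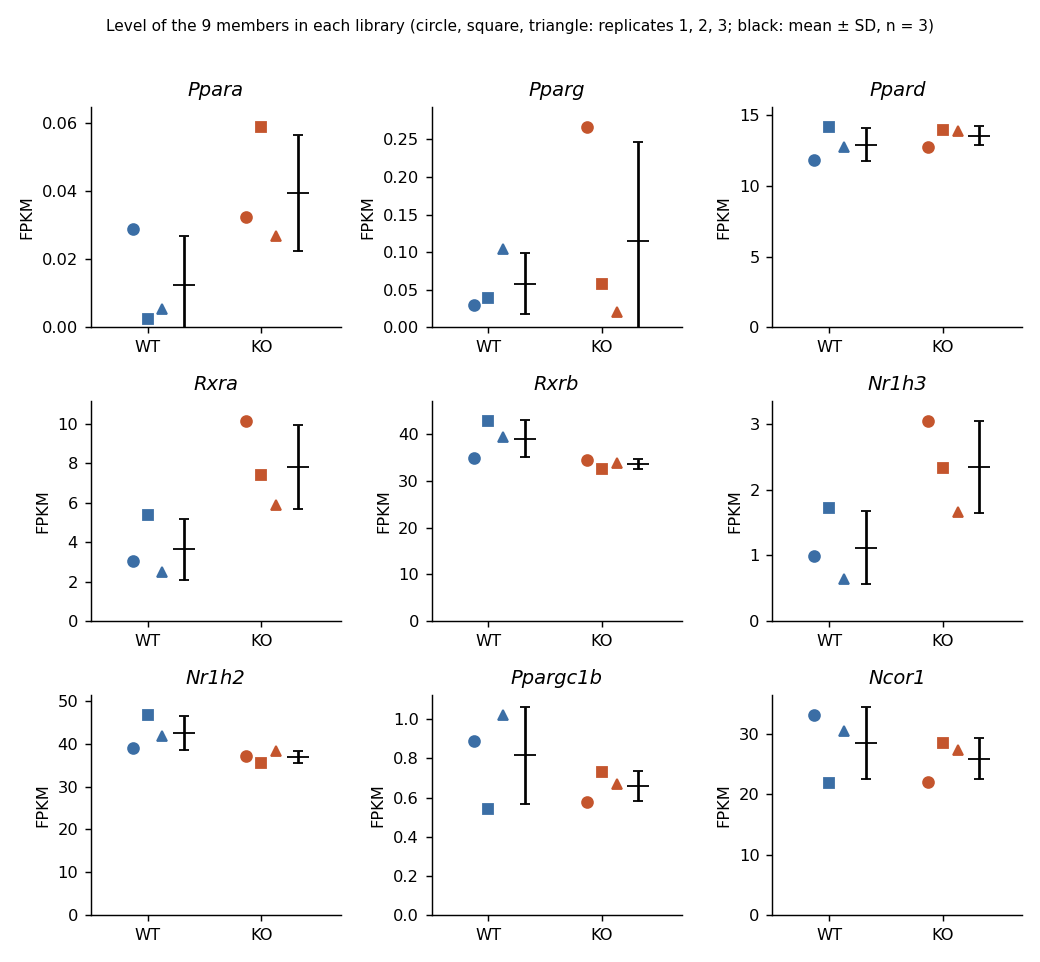
Level of each gene in FPKM on a linear axis from 0, by library, with circles, squares and triangles for replicates 1, 2 and 3, WT in blue, KO in orange, and black marks for the mean ± SD (n = 3, bars end at 0 where the SD exceeds the mean). Rxra lies at 2.46 to 5.36 FPKM in WT and 5.89 to 10.1 FPKM in KO, whereas Rxrb and Nr1h2 lie slightly lower in KO and Ppara and Pparg stay under 0.3 FPKM.

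Rxra, the RXR partner gene that is prominent in myeloid cells, was the member with the largest difference on the log2(FPKM + 1) scale. Its level was 3.07, 5.36 and 2.46 FPKM in WT and 10.1, 7.39 and 5.89 FPKM in KO. Every KO library lay above every WT library, although WT replicate 2 and KO replicate 3 were close. Rxra averaged 3.63 ± 1.53 in WT against 7.80 ± 2.15 FPKM for KO (SD, n = 3), a ratio of 2.15. The log2 difference was 0.95 with an SE of 0.25, and limma's adjusted p over all genes was 0.143, so the gene did not pass. It passed in 2 alternatives, without WT replicate 2 (log2 difference 1.20, limma adjusted p = 0.021) and with array weights (0.99, limma adjusted p = 0.0223), and the range over the 19 alternatives was 0.021 to 0.775. Those 2 alternatives called many more genes in all, 546 (5.09%) and 613 (5.71%). The core macrophage genes differed in the same direction, by 1.60 on the log2 scale. With their mean as a covariate the Rxra difference was -0.12 (limma adjusted p = 0.775). That mean was at most 6.41 in WT and at least 6.87 in KO, so this fit cannot separate it from the group label.

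Rxrb, the partner gene expressed in most cell types, went the other way. Its level was 34.9, 42.8 and 39.4 FPKM in WT and 34.5, 32.5 and 33.8 FPKM in KO. Every KO library lay below every WT library, but KO replicate 1 and WT replicate 1 differed by little. Rxrb averaged 39.03 ± 3.93 in WT against 33.6 ± 1.03 FPKM for KO (SD, n = 3), a ratio of 0.861. The log2 difference was -0.21 with an SE of 0.09 and a limma adjusted p of 0.319. It was negative in all 19 alternatives, from -0.34 to -0.14, but the groups overlapped under median-of-ratios scaling. The B cell genes differed in the same direction, by -0.22 on the log2 scale, and the T and NK cell genes by -0.27, and the part of either in the result was not tested.

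Nr1h3, the gene of an LXR that macrophages are known to use, followed Rxra. Its level was 0.998, 1.73 and 0.638 FPKM in WT (80, 141 and 49 reads) and 3.05, 2.33 and 1.66 FPKM in KO (258, 193 and 130 reads). WT replicate 2 lay just above KO replicate 3, so the groups overlapped. Nr1h3 averaged 1.12 ± 0.555 in WT against 2.35 ± 0.695 FPKM for KO (SD, n = 3), a ratio of 2.09. The log2 difference was 0.67 with an SE of 0.22, and limma's adjusted p was 0.206, with 0.0547 to 0.619 over the 19 alternatives. With the core macrophage genes as a covariate the log2 difference was -0.22 (limma adjusted p = 0.619), and the limit given for Rxra holds here too.

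Nr1h2, the gene of the LXR found in most tissues, followed Rxrb. Its level was 38.96, 46.8 and 41.8 FPKM in WT and 37.1, 35.4 and 38.2 FPKM in KO. All KO values lay below all WT values, with KO replicate 3 and WT replicate 1 closest. Nr1h2 averaged 42.5 ± 3.95 in WT against 36.9 ± 1.38 FPKM for KO (SD, n = 3), a ratio of 0.869. The log2 difference was -0.19 with an SE of 0.09 and a limma adjusted p of 0.333. It was negative in all 19 alternatives, from -0.32 to -0.13, and the groups overlapped under median-of-ratios scaling.

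Ppargc1b encodes PGC-1β, a coactivator known for driving mitochondrial genes. Its level was 0.887, 0.542 and 1.02 FPKM in WT (350, 218 and 387 reads) and 0.578, 0.729 and 0.668 FPKM in KO (241, 297 and 258 reads). The lowest and the highest library were both WT, and the KO libraries lay between them. Ppargc1b averaged 0.817 ± 0.248 in WT against 0.658 ± 0.0760 FPKM for KO (SD, n = 3), with a log2 difference of -0.12, an SE of 0.13 and a limma adjusted p of 0.663.

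Ncor1 encodes the scaffold of the corepressor complex. Its level was 33.2, 21.8 and 30.5 FPKM in WT and 22.0, 28.5 and 27.3 FPKM in KO. WT replicate 2 and KO replicate 1 were the lowest libraries and differed by little, 1 from each group, so the groups overlapped. Ncor1 averaged 28.5 ± 5.96 in WT against 25.9 ± 3.45 FPKM for KO (SD, n = 3), with a log2 difference of -0.12, an SE of 0.17 and a limma adjusted p of 0.743. The same 2 libraries were low in long transcripts generally: over the 2338 tested genes of at least 6000 bases, the median deviation from the gene's own mean was -0.12 in WT replicate 2 and -0.15 in KO replicate 1 on the log2 scale, and 0.01 to 0.11 in the other 4 libraries. Ncor1, at 11483 bases, is among those genes, and the part of transcript length in its values was not tested.

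Of the 9 members, 0 passed limma's test over all genes, where 3 of 10735 genes tested passed (0.0279%), all higher in KO. At an unadjusted limma p under 0.05 there were 2 members, Rxra and Nr1h3, beside 17.1% of all genes, and voom on the recovered reads called 0 members. Of the 6 members at a mean of at least 1 FPKM, 3 had groups that did not overlap, 1 higher and 2 lower in KO, beside 24.9% of the 10732 genes at that level (9.75% higher and 15.2% lower). With so few members these shares are a description. Without WT replicate 2 the count of 3 was 6 of 6, beside 50.2% of all genes, and Rxra was the single member called. Under median-of-ratios scaling it was 1, beside 22.0% of all genes. The median log2 difference of the 6 members was -0.03, beside -0.06 over all genes at that level.

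**Figure D2:**
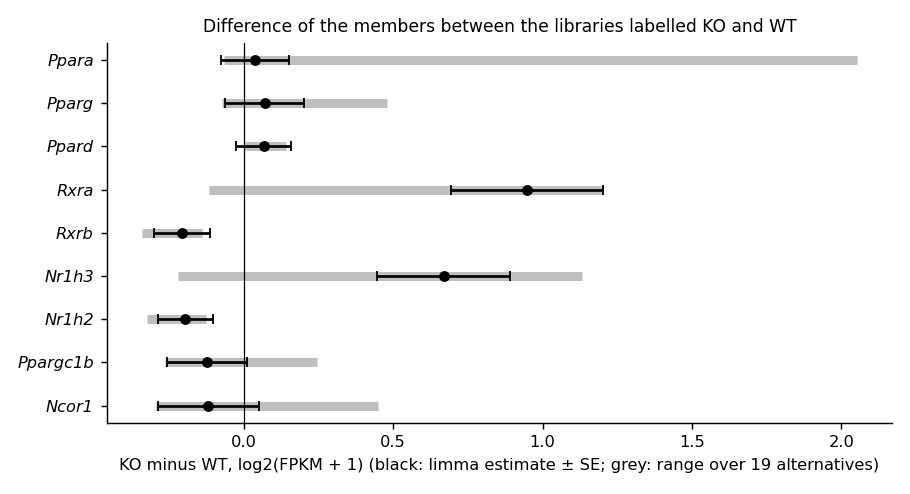
Difference between KO and WT for each member on the log2(FPKM + 1) scale, with the limma estimate ± SE in black and the range over 19 alternatives in grey (some on another pseudocount or on recovered reads, which widens the range of the low genes). Rxra and Nr1h3 lie at 0.95 and 0.67 with ranges that cross 0 because of the macrophage covariate, whereas Rxrb and Nr1h2 stay below 0 throughout.

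Ordered by mean level over the 6 libraries, Nr1h2 (39.7 FPKM) came first, followed by Rxrb (36.3), Ncor1 (27.2), Ppard (13.2), Rxra (5.72), Nr1h3 (1.73), Ppargc1b (0.738), Pparg (0.0866) and Ppara (0.0259). For 6 of the 8 pairs of neighbours every library showed this order. Their exact two-sided sign-flip permutation p was 0.031, the smallest that 6 libraries allow, and 0.0417 adjusted over the 8 pairs. The order was taken from the same 6 libraries, so these p-values describe only how steadily it recurred among them. Nr1h2 and Rxrb were in this order in 6 of 6 libraries although they differed by a mean factor of only 1.09. Nr1h3 and Ppargc1b, in this order in 5 of 6 libraries (adjusted p = 0.107 by the exact test), and Pparg and Ppara, in 4 of 6 (adjusted p = 0.188 by the exact test), did not differ beyond their spread.

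The ratio between the 2 forms of each receptor was read within libraries, where the total of a library cancels. The mix of cell types does not cancel. The core macrophage genes differed by 1.60 and the B cell genes by -0.22 on the log2(FPKM + 1) scale. The part of the cell mixture in these ratios was not tested. Nr1h3 amounted to 2.56%, 3.69% and 1.53% of the Nr1h2 level in WT and to 8.21%, 6.58% and 4.34% in KO. Rxra amounted to 8.78%, 12.5% and 6.26% of the Rxrb level in WT and to 29.3%, 22.7% and 17.4% in KO. For both pairs every KO library lay above every WT library. On the log2 scale Nr1h3 to Nr1h2 gave -5.36 ± 0.64 for WT against -4.02 ± 0.47 for KO (SD, n = 3), which differ by 1.34 or 2.53-fold, and that of Rxra to Rxrb was -3.50 ± 0.50 and -2.14 ± 0.37, a difference of 1.36 or 2.56-fold. Each had an exact two-sided permutation p of 0.1, the smallest that 3 against 3 allow, and 0.2 adjusted over the 4 ratios compared, so neither could pass 0.05 in this design. Leaving out any 1 library left the differences between 1.00 and 1.64 for the LXR pair and between 1.11 and 1.61 for the RXR pair.

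The other ratios showed no such separation. The log2 ratio of Pparg to Ppard was -8.01 ± 0.94 for WT against -7.63 ± 1.93 for KO (SD, n = 3, exact permutation p = 0.8), and its difference was 0.38 with all libraries and -0.64 without KO replicate 1. That of Ppargc1b to Ncor1 was -5.15 ± 0.23 and -5.30 ± 0.05 (SD, n = 3, exact permutation p = 0.4). Both genes have long transcripts and shared the low values of WT replicate 2.

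**Figure D3:**
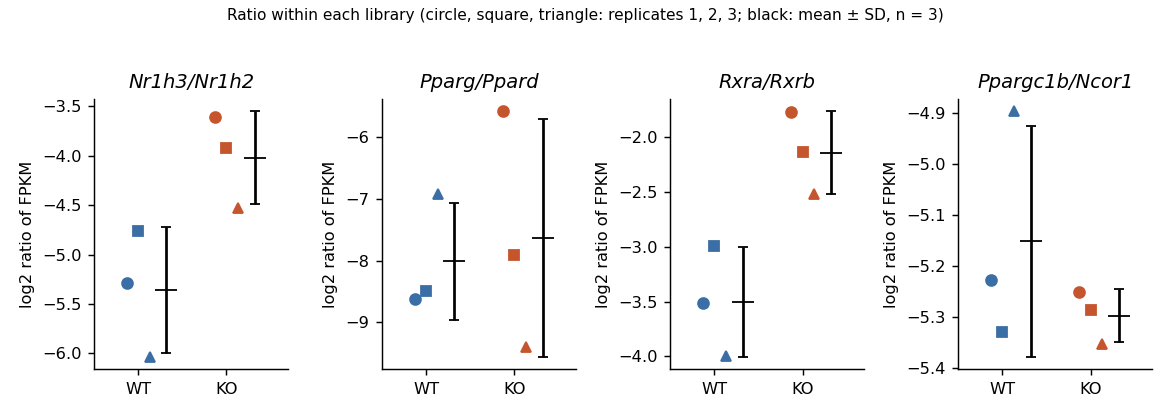
Log2 ratio of FPKM within each library for the 4 pairs, with circles, squares and triangles for replicates 1, 2 and 3, WT in blue, KO in orange, and black marks for the mean ± SD (n = 3). The KO libraries lie above the WT libraries for Nr1h3/Nr1h2 and Rxra/Rxrb, by 1.34 and 1.36 on average, and the groups overlap for the other pairs.

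Ratios were also taken across receptor types. Rxra and Nr1h3 kept a nearly constant ratio: Rxra was 3.08 to 3.86 times as high as Nr1h3 in all 6 libraries, with an SD of the log2 ratio of 0.13, whereas Rxra itself ran from 2.46 to 10.1 FPKM. Rxrb and Nr1h2 were held more closely still, at a ratio of 0.884 to 0.942 and an SD of 0.03. These were the smallest SDs among the 15 pairs of the 6 members at a mean of at least 1 FPKM, followed by Ppard with Nr1h2 (SD 0.16) and Ppard with Rxrb (SD 0.17). Pairs of Rxra or Nr1h3 with a more abundant form, such as Rxra with Nr1h2 (SD 0.84) and Nr1h3 with Rxrb (SD 0.89), had larger SDs. The 6 points share libraries, depth and cell mixture, so this is a description with no test. Pairs with genes outside the members were not ranked, so the steadiness is not shown to be particular to these pairs.

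To set the members beside the cell markers, each level was divided by the mean of a marker list on the log2 scale. Relative to the 10 core macrophage genes, Rxra stood at -3.88, -3.92 and -3.52 in WT and at -4.38, -4.25 and -4.27 in KO, so it was lower in every KO library, by 0.53 on average. Nr1h3 stood at -5.50, -5.55 and -5.47 in WT and at -6.12, -5.91 and -6.10 in KO, lower by 0.53 as well. The core macrophage genes were themselves 1.60 higher in KO on the log2(FPKM + 1) scale. The relative values were taken on log2 FPKM with nothing added, so the 2 scales do not add up exactly. All 6 members were lower relative to this list, with differences of -1.60 for Ppard, -1.89 for Rxrb, -1.87 for Nr1h2 and -1.80 for Ncor1. A lower value here says only that a member did not differ upward by as much as the list. Relative to the 10 B cell genes, Rxrb differed by 0.01 (exact two-sided permutation p = 0.8) and Nr1h2 by 0.03 (exact permutation p = 0.5), with overlapping groups, whereas Rxra and Nr1h3 each stood 1.37 higher in KO, Ppard 0.30 higher and Ncor1 0.10 higher. Over the 12 such comparisons of 6 members with 2 lists the smallest adjusted p was 0.133, from a raw exact permutation p of 0.1, the smallest possible.

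**Figure D4:**
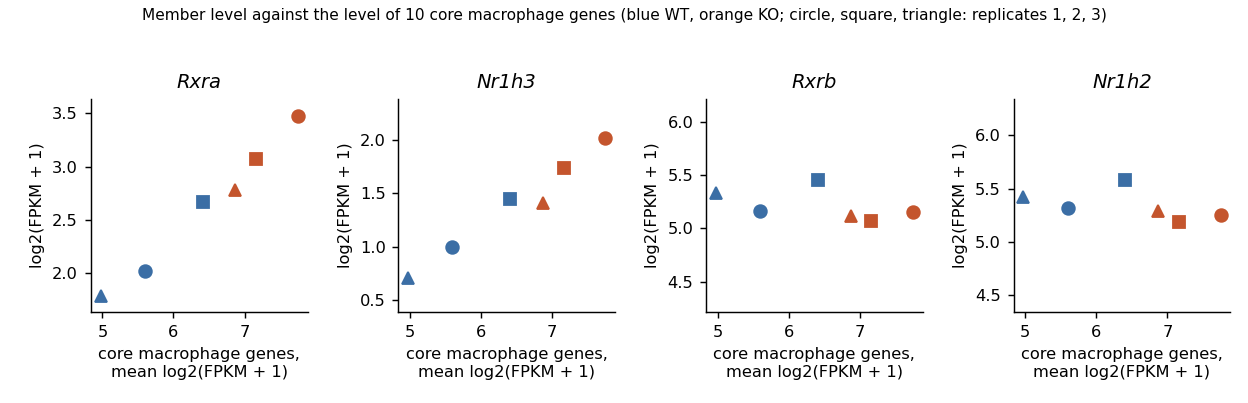
Level of 4 members on the log2(FPKM + 1) scale against the mean log2(FPKM + 1) of the 10 core macrophage genes, 1 point per library, with equal vertical spans, WT in blue and KO in orange. Rxra and Nr1h3 are higher in libraries with more macrophage transcripts within each group as well as between groups, from WT replicate 3 at 4.97 to KO replicate 1 at 7.75 on the horizontal axis, and Rxrb and Nr1h2 are not.

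The stretches upstream of the transcription starts of Rxra with Nr1h3 and of Rxrb with Nr1h2 are shown. These pairs had the steadiest ratios among the member pairs ranked above. Both listed starts of Rxra are shown, the first of 2 listed for Nr1h3 and for Rxrb, and the single one of Nr1h2. Each is the 250 bases before a RefSeq start (GRCm38.p6), written 5′ to 3′ on the gene's strand. Capitals mark matches, on either strand, to the core motif of nuclear receptors (AGGTCA), the PU.1 core (GAGGAA), the GC box (GGGCGG), the ETS site (CCGGAA) and the CCAAT box (CCAAT). The ETS site was added after the sequences had been seen.
Rxra, start 1, chr2:27676951-27677200, plus strand: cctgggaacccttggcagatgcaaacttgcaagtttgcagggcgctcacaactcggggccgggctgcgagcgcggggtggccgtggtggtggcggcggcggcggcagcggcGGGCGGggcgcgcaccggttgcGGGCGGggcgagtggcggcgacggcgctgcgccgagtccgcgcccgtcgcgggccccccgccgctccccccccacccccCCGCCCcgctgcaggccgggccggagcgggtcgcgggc
Rxra, start 2, chr2:27709042-27709291, plus strand: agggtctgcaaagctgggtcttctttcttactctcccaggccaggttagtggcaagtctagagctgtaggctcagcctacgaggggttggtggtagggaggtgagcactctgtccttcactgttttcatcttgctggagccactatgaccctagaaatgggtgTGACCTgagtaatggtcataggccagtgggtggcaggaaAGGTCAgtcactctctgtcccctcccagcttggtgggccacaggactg
Nr1h3, start 1, chr2:91195117-91195366, minus strand: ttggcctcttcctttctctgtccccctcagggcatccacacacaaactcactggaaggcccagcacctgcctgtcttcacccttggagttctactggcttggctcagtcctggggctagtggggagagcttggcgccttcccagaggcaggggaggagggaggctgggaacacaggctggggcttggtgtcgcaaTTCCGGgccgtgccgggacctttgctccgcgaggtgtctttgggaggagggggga
Rxrb, start 1, chr17:34031562-34031811, plus strand: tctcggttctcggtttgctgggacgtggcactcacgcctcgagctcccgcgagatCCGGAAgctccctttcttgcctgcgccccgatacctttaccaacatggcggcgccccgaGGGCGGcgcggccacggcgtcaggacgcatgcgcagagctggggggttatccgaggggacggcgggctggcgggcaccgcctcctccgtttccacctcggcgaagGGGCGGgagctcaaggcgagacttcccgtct
Nr1h2, start 1, chr7:44553966-44554215, minus strand: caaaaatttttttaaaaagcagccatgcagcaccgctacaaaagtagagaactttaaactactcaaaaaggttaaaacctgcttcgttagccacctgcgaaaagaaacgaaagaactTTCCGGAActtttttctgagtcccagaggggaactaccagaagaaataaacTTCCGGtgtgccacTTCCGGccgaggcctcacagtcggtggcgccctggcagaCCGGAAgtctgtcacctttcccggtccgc
The first Rxra start had 3 GC boxes, a number reached by 8.47% of 32851 windows of the same length, and 81.2% G and C, beside a median of 52.4%. The second Rxrb start, not printed, also had 3 GC boxes, and 82.4% G and C. Both Rxra stretches and that of Nr1h3 lie inside the span of the gene in GENCODE M21. The second Rxra start held the only AGGTCA matches among these 5 stretches, 1 on each strand, and 14.02% of all windows hold at least 1. The Nr1h3 stretch held a single ETS site, and Rxrb held 1 ETS site and 2 GC boxes. The Nr1h2 stretch held 5 ETS matches, 2 of which overlap on opposite strands, and 7 of the 32851 windows held as many. The motif was added after this stretch had been seen and the number is the stretch's own, so that rarity tests nothing. At least 1 ETS site was present in 12.03% of windows, 1 PU.1 core in 23.25%, 1 GC box in 32.74% and 1 CCAAT box in 33.85%, and neither PU.1 core nor CCAAT box matched in the 5 stretches. A match is a description of letters and not a binding site.

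In mm10, Rxra spans 27676440 to 27762957 of chromosome 2 (plus strand) and Nr1h3 91184061 to 91202834 of the same chromosome (minus strand). Rxrb spans 34031812 to 34038399 of chromosome 17 (plus strand) and Nr1h2 44549616 to 44553951 of chromosome 7 (minus strand). Ppara (chromosome 15, 85734983 to 85802819, plus strand), Ppard (chromosome 17, 28232700 to 28301474, plus strand), Rxra, Rxrb and Nr1h2 overlap no other annotated gene in GENCODE M21. Ncor1 (chromosome 11, 62316426 to 62458541, minus strand) overlaps the protein-coding genes Ttc19 and Pigl on the opposite strand, so that its reads are uncertain where the counting did not use strand. Pparg (chromosome 6, 115360951 to 115490399, plus strand) overlaps the antisense gene Gm44079, which makes its few reads uncertain. Nr1h3 and Ppargc1b (chromosome 18, 61298136 to 61400431, minus strand) overlap 2 noncoding genes each.

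Coregulators of the same complexes were examined as a list of 22 genes, of which 2 were below 1 FPKM on average and 20 were tested. None passed limma's test over all genes (2 had an unadjusted limma p under 0.05), 4 had positive and 16 negative differences, and the median log2 difference was -0.13 beside -0.06 over all genes. Groups did not overlap for 3, all lower in KO, or 15% beside 24.9% of all genes. Gps2, a subunit of the NCOR1 complex, was at 51.5, 62.1 and 56.4 FPKM in WT and 46.6, 47.8 and 50.7 FPKM in KO. Hdac3, the deacetylase of that complex, was at 29.7, 32.3 and 33.6 FPKM in WT and 25.9, 29.7 and 28.9 FPKM in KO. Carm1, an arginine methyltransferase that works with coactivators, was at 15.8, 17.5 and 15.8 FPKM in WT and 15.1, 14.5 and 14.4 FPKM in KO. In all 3 every KO library lay below every WT library, by small margins. Helz2, a PPAR coactivator that is also induced by interferon, had the smallest p of the list and stood at 120, 76.9 and 87.3 FPKM in WT and 62.2, 77.4 and 63.7 FPKM in KO, with groups that overlapped (limma adjusted p = 0.243).

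Other coregulators shared the low libraries of Ncor1. Of the 21 coregulators tested, Ncor1 included, 11 (52.4%) had WT replicate 2 and KO replicate 1 as their lowest 2 libraries, beside 1992 of all 10732 genes (18.6%). Of the 15 with transcripts of at least 6000 bases 10 did (66.7%), beside 1169 of all 2338 such genes (50.0%). Whether the list differs from other genes of its length was not tested. Ep300 and Crebbp, both acetyltransferase coactivators, stood at 26.8 and 11.1 FPKM in WT replicate 2 and at 27.8 and 10.7 FPKM in KO replicate 1, and at 32.1 to 40.5 and 13.9 to 17.7 FPKM in the other 4 libraries.

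**Figure D5:**
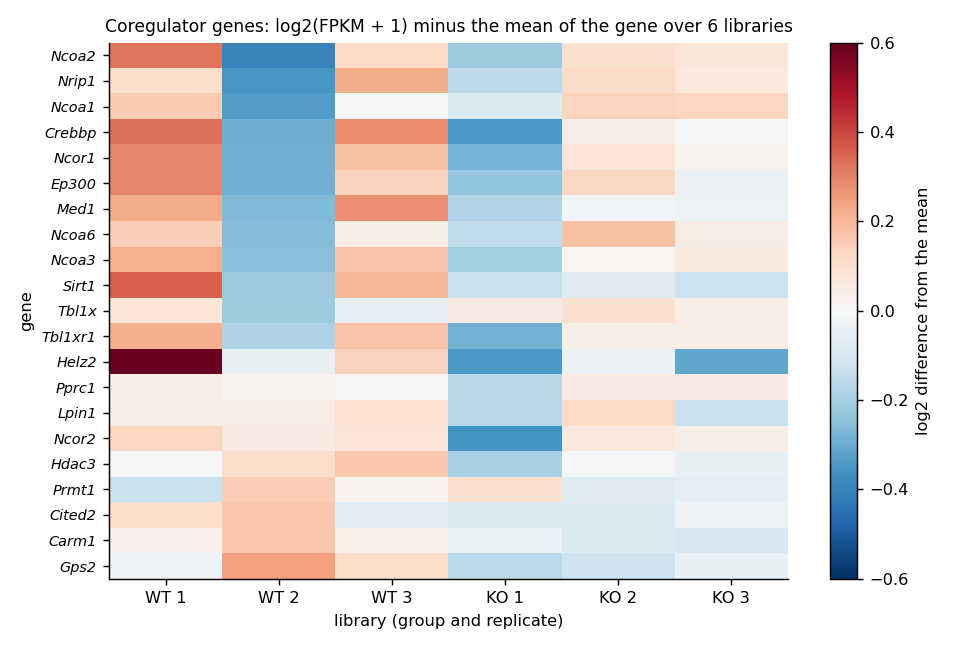
Log2(FPKM + 1) of 21 coregulator genes minus each gene's mean over the 6 libraries, with genes in rows ordered by their value in WT replicate 2, libraries in columns, blue below and red above the mean. Ncor1 and 10 other genes are lowest in WT replicate 2 and KO replicate 1, and Gps2, Carm1, Cited2 and Prmt1 show the opposite in WT replicate 2.

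No PPAR target gene passed the test. Of 26 listed genes, 23 were in the tables and 17 were tested, 0 passed limma's test (2 had an unadjusted limma p under 0.05), 9 were positive and 8 negative, and the median was 0.01 beside -0.06 over all genes. Groups did not overlap for 2, both higher in KO, or 11.8% beside 24.9% of all genes. Plin2, which coats lipid droplets, was at 13.2, 20.7 and 9.83 FPKM in WT and 49.1, 29.0 and 24.2 FPKM in KO (limma adjusted p = 0.143). Cd36, a fatty acid and lipoprotein receptor, was at 19.04, 26.3 and 13.04 FPKM in WT and 87.4, 43.0 and 30.7 FPKM in KO (limma adjusted p = 0.164). In both, KO replicate 1 was by far the highest library, as it was for the core macrophage genes. Fabp4, a fatty acid carrier, was at 5.35, 10.7 and 5.58 FPKM in WT and 43.0, 17.2 and 7.64 FPKM in KO, with groups that overlapped. Ucp2, a mitochondrial carrier, stood at 328 ± 66.8 and 389 ± 31.0 FPKM (SD, n = 3). Cpt1a, the entry step of mitochondrial fatty acid oxidation, stood at 19.1 ± 1.48 and 19.05 ± 0.845 FPKM (SD, n = 3).

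No LXR target gene passed the test either. Of 15 listed genes, 14 were in the tables and 13 were tested, 0 passed limma's test (5 had an unadjusted limma p under 0.05), 7 were positive and 6 negative, and the median was 0.29 beside -0.06 over all genes. Groups did not overlap for 5, all higher in KO, or 38.46% beside 24.9% of all genes. Abca1, which exports cholesterol, was at 29.4, 15.8 and 28.3 FPKM in WT and 39.4, 47.9 and 42.9 FPKM in KO (limma adjusted p = 0.141). Unlike Nr1h3, it was lowest in WT replicate 2 and highest in KO replicate 2. Abca1, at 10432 bases, is among the long transcripts, which were generally low in WT replicate 2 and KO replicate 1. The part of transcript length in its values was not tested. Pltp, which moves phospholipids between lipoproteins, was at 27.9, 58.9 and 23.1 FPKM in WT and 108, 65.7 and 62.6 FPKM in KO. Lpcat3, which remodels membrane phospholipids, was at 13.8, 17.2 and 14.7 FPKM in WT and 21.0, 18.0 and 18.7 FPKM in KO. Arl4c, a small GTPase, was at 21.7, 27.0 and 24.8 FPKM in WT and 28.3, 30.7 and 31.0 FPKM in KO. The 5th was Smpdl3a, a phosphodiesterase, at 33.1, 34.9 and 42.7 FPKM in WT and 70.3, 43.7 and 43.8 FPKM for KO. Of the lipid synthesis genes regulated by LXR, Srebf1 stood at 22.4 ± 2.61 and 21.2 ± 1.03 FPKM and Fasn at 14.0 ± 1.20 and 12.8 ± 0.747 FPKM (SD, n = 3), with groups that overlapped. No upstream window of the 18 PPAR and 10 LXR targets that had one matched, on either strand, the direct repeat of AGGNCA with 1 base or with 4 bases between the copies, which are present in 0.34% and 0.21% of all windows. These windows are short, and nothing follows from that about the factors.

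Genes that supply or carry ligands were taken as a list of 19, of which 10 were tested. None passed limma's test (3 had an unadjusted limma p under 0.05), 7 were positive and 3 negative, and the median was 0.27 beside -0.06 over all genes. Groups did not overlap for 4, all higher in KO, or 40.0% beside 24.9% of all genes. Acsl4, which activates polyunsaturated fatty acids, was at 10.05, 7.07 and 6.94 FPKM in WT and 12.7, 12.6 and 11.2 FPKM in KO. Alox15, a lipoxygenase that makes oxidised fatty acids and is also on the peritoneal macrophage list, was at 13.6, 25.03 and 7.56 FPKM in WT and 89.1, 38.0 and 25.6 FPKM in KO. Fabp5, a carrier of fatty acids to the nucleus, was at 48.9, 76.8 and 57.4 FPKM in WT and 177.8, 95.2 and 80.6 FPKM for KO. Fabp7, a related carrier, stood at 14.3 ± 8.34 and 28.3 ± 17.6 FPKM (SD, n = 3). Limma's adjusted p for these 4 genes ran from 0.133 for Acsl4 to 0.421 for Fabp7. The 4th gene without overlap was Acsl1, a related ligase, at 4.38, 4.26 and 4.24 FPKM in WT against 4.78, 5.43 and 4.49 FPKM for KO (limma adjusted p = 0.446).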

How the data were processed

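RNA from 6 libraries was extracted with TRIzol and prepared with the VAHTS Universal V6 kit, per the labels' protocols. The authors deposited FPKM for 21399 gene symbols per library, on build mm10 per the submitters' processing notes. Which aligner was used is not given in the sources used here, nor are the counter, its strand setting and the annotation. FPKM steps gave whole reads in all 19331 genes above 0 in at least 2 libraries, within 0.002 reads; where counts shared a factor, whole-base lengths fixed it. Genes averaging 1 FPKM or more, plus the 3 members below it, were tested on log2(FPKM + 1) with limma 3.58.1 in R 4.3.3 (trend, Benjamini-Hochberg, 0.05). Such log2 differences understate those of low genes. Single values used exact two-sided permutation tests. Methods were tested on simulated data.

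All 9 members are named; of each pathway list the 4 tested genes with the smallest limma p are named. Other genes, such as Cpt1a, Srebf1, Fasn, Smpdl3a, Acsl1, Ep300 and Crebbp, were chosen after their values were seen. Members and lists were chosen with earlier results of these data known. Marker ratios, pair ratios across receptor types and transcript lengths were added after the data were seen. Promoter sequences came from RefSeq (8 members matched) and positions from GENCODE M21. Alternatives covered pseudocounts of 0.1 and 5, filters, scaling, variance options, the replicate block, voom on reads, a macrophage covariate and leaving out each library. Python 3.11.15, pandas 2.3.3, numpy 2.4.6, scipy 1.17.1 and matplotlib 3.10.9 were used. Some genes of the lists are not reported here.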

Additional observations from a re-analysis of the deposited data

How the results depend on the processing

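The number of genes called higher in KO, 3 of those tested, was 5 with a pseudocount of 5, 0 with no filter, 545 with array weights, 11 with the replicate block, 0 with the macrophage covariate and 5 by voom, and 0 to 509 when 1 library was left out; the number called lower, 0, was 68 with array weights and 0 to 37 when 1 library was left out. The highest values, 509 and 37, came without WT replicate 2, and 0, 1 and 1 genes were called higher without WT replicate 1, KO replicate 1 and KO replicate 2. Of the members, 1 was called with array weights and 0 to 1 when 1 library was left out. The number of members with groups that did not overlap, 3, was 1 under median-of-ratios scaling and 3 to 6 when 1 library was left out. The sign turned with quantile normalization for Ppara (-0.0665) and Pparg (-0.0732), with the macrophage covariate for Pparg (-0.0272), Rxra (-0.12), Ppargc1b (0.25), Nr1h3 (-0.22) and Ncor1 (0.45), and without KO replicate 1 for Pparg (-0.0252 to 0.1303 over the libraries left out in turn) and for the log2 ratio of Pparg to Ppard (-0.64 to 1.27). The cause was not tested. The covariate itself differed between the groups. Ppara's ratio of mean reads, 3.29, was 2.36 to 10.2 when 1 library was left out, 10.2 without WT replicate 1. The values did not show that the replicate numbers pair the libraries. Deviations of same-numbered libraries from their group means correlated at -0.208, -0.376 and 0.273, and not every library was nearest to its own number. With 3 libraries per group such correlations cannot exclude a pairing. The replicate block changed no call of a member. Ppara and Pparg, at 1 to 28 reads per library, are limited by depth. With 1 library left out of a group, 2 libraries remained in it.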

Other observations

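Other nuclear receptors, taken as a list of 28 genes of which 26 were in the tables and 15 were tested, included 0 that passed limma's test over all genes (1 had an unadjusted limma p under 0.05), 11 were positive and 4 negative, and the median log2 difference was 0.06 beside -0.06 over all genes. Groups did not overlap for 2, 1 higher and 1 lower in KO, or 13.3% beside 24.9% of all genes. Rarg, a retinoic acid receptor that also pairs with RXR, was at 5.20, 6.44 and 4.96 FPKM in WT and 7.92, 7.19 and 6.76 FPKM in KO, with groups that did not overlap (limma adjusted p = 0.198). Its relative Rara stood lower in KO, at 14.98 ± 0.748 and 13.9 ± 0.574 FPKM (SD, n = 3), also without overlap (limma adjusted p = 0.541), and was named after its values were seen. Nr4a2, Nr1d1 and Nr2f6 completed the 4 with the smallest p, with means of 0.737 ± 0.268 and 1.68 ± 0.941 FPKM, 1.60 ± 0.606 and 2.20 ± 0.300 FPKM, and 4.54 ± 0.649 and 5.27 ± 0.614 FPKM, and their groups overlapped.

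The genes whose profile over the 6 libraries was closest to that of a member were found among 7617 genes at a mean of at least 5 FPKM, by the largest gap in log2(FPKM + 1) in any library after centring each gene. For Rxra they were Cndp2, a dipeptidase (largest gap 0.08), Mt1, a metallothionein (0.12), and Atf3, a stress-induced transcription factor (0.12), beside a median gap of 0.94 over all these genes. Cndp2 was at 24.3, 42.9 and 21.1 FPKM in WT and 76.0, 53.2 and 44.4 FPKM in KO. For Nr1h3 they were Txn1, thioredoxin (0.11), Rnpep, an aminopeptidase (0.11), and P4hb, protein disulfide isomerase (0.12), beside a median of 0.76. For Ncor1 they were Lrba (0.04), the G protein gene Gna13 (0.04) and Ankrd44 (0.05), beside a median of 0.41. Lrba was at 6.74, 4.13 and 6.11 FPKM in WT and 4.34, 5.62 and 5.64 FPKM in KO, with the same 2 low libraries as Ncor1.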
